A study of Triticum aestivum with 16 samples.

Results

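SB53 is a bread wheat (Triticum aestivum) recombinant inbred line, and the data described here are the 2 arrays made from its flag leaves, set against the 14 arrays of 7 other lines of the same population. The lines are progeny of the cross Seri M82 × Babax: SB15, SB33, SB53, SB80, SB138, SB146, SB165 and SB189, each with 2 field replicates. All 8 lines were grown under irrigation in 2007 and their flag leaves were taken 6 to 8 days after anthesis, so the groups share stage, organ and treatment and differ by genotype. No parent sample was analysed here. Total RNA was hybridised to a wheat oligonucleotide array, and each value is a log2 signal, so a difference of 1 is a 2-fold difference in signal.

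The flag leaf is the uppermost leaf of a wheat shoot and a main source of sugar for the filling grain. Wheat leaves and stems hold water-soluble carbohydrate largely as fructans, polymers of fructose built onto sucrose, which fructan exohydrolases trim back to fructose when the store is drawn on. An inbred line from a cross of 2 parents carries, at most positions in its genome, the version of one parent or of the other. Bread wheat carries 3 related subgenomes, so a probe set of short probes can respond to several near-identical gene copies. A lower signal from less transcript and a lower signal from a base difference under the probes cannot be told apart on such an array, and nor can fewer cells of a type and less RNA per cell in a whole leaf.

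The array holds 61290 probe sets, of which 175 are controls and 61115 were tested. The lowest value in the table is 2.25, the floor of the deposited processing, and 41.39% of all values lie at it. Some probe sets repeat a higher value on many arrays, such as 5.72 on the 14 arrays of the other lines at Ta.23313.3.A1_at. Whether such a value is a floor of that probe set was not tested, and a mean of 5 or more does not remove such probe sets. Description rests mainly on the 19740 probe sets with a mean of 5 or more over the 16 arrays. The annotation used here puts a gene to 1273 probe sets and 690 of these had a mean of 5 or more, so most of the probe sets below are given by their array identifier with no gene name and no known role. The 2 SB53 arrays correlated at r = 0.995 across these 19740 probe sets, the highest of the 8 lines (0.9892 to 0.9935 in the others), and 73 probe sets with a mean of 5 or more differed by at least 1 between them, against 105 to 244 in the other lines. The leaf identity was plain in SB53: the brightest probe set put to rbcL, the large subunit of the carbon-fixing enzyme Rubisco, read 16.55 and 16.57. Other probe sets put to rbcL read lower in SB53, among them TaAffx.128414.72.S1_at at 11.28 and Ta.14567.2.S1_at at the floor of 2.25. Of 17 probe sets for grain proteins, 1 had a mean of 5 or more, that of the amylase inhibitor WMAI-1. It read 5.75 on both SB53 arrays and on both arrays of SB15, SB165 and SB189, a repeated value that may be its floor. The gliadins, glutenin, serpins and the anther proteins raftin1a and raftin1b lay between 2.25 and 2.55. Profilin, an actin-binding protein listed with the anther proteins, was the exception, with means of 13.27 and 14.29 in SB53 on its 2 probe sets of mean 5 or more and 13.26 to 13.54 and 14.22 to 14.38 in the other lines.

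SB53 differed from the mean of the other 7 lines at 359 of the 19740 probe sets (1.82%; limma, adjusted p under 0.05). Of these, 190 were higher in SB53 (0.963%) and 169 were lower (0.856%), a near-even split. Size was less even. Among the lower probe sets 47 differed by 2 or more, and among the higher ones 11 did. The median difference was -1.01 for those called lower and 0.81 for those called higher, beside a median size of 0.084 over all 19740. Without SB80 the count was 230. A filter on the mean of all arrays can remove a transcript that only 1 or 2 lines express. With the filter set on the higher of the SB53 mean and the mean of the others, an alternative added after the data were seen, 395 were called, and those that differed by 2 or more numbered 51 lower and 24 higher. Over all 61115 probe sets 567 were called (0.928%), 325 higher (0.532%) and 242 lower (0.396%), and of the 208 with a mean under 5 there were 92 with both means under 3, next to the floor. Leaving out single arrays moved the count over all probe sets to between 876 and 2220, the latter without the first SB53 array. The split turned with it: 28.8% to 39% were higher when an array of another line was left out, and 86.2% and 87.4% when an SB53 array was, so no direction is drawn from the count over all probe sets.

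The 58 probe sets that differed by 2 or more mostly had a gap of several log2 units between the lowest and the highest line. In 47 of them SB53 stood at the low end, and 18 called probe sets had an SB53 mean under 3. None of the 58 has a gene name. Other lines were counted with SB53 in all but 4 of them. A line was counted with SB53 when its mean lay closer to the SB53 mean than to the mean of the line farthest from SB53. This can include a line between the ends, such as SB15 at Ta.3242.1.A1_at, at 6.29 beside 2.84 in SB53 and 11.31 in SB33. By this measure SB15 stood with SB53 in 28 of the 58, SB146 in 24, SB138 in 20, SB33 and SB80 in 18 each, SB189 in 12 and SB165 in 6.

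**Figure D1:**
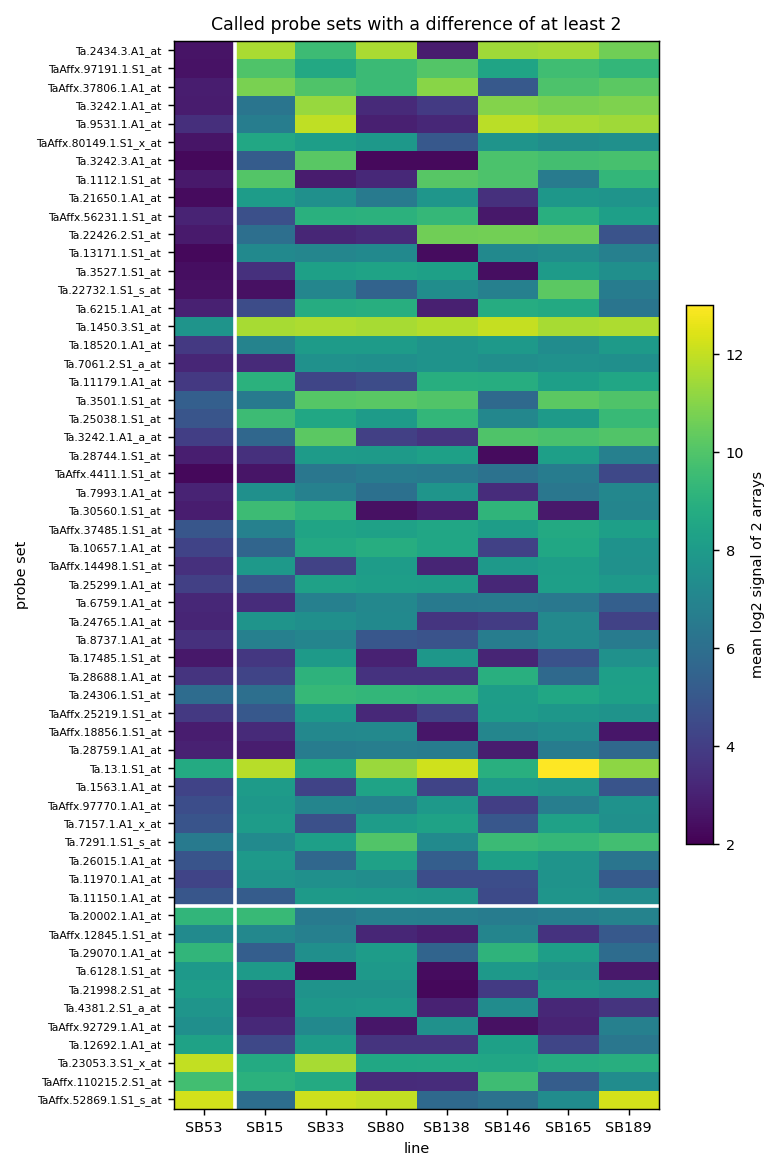
Mean log2 signal of the 2 arrays of each line (colour) for the 58 called probe sets with a difference of at least 2 (rows), SB53 in the first column, the 47 lower in SB53 above the white line and the 11 higher below it. In most rows 1 to 3 other columns lie on the SB53 side of the colour range, and the columns concerned change from row to row.

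The clearest case of a signal missing from SB53 alone was TaAffx.97191.1.S1_at. It read 2.80 and 2.25 in SB53 and between 8.25 and 10.09 on the 14 other arrays, with a median of 9.50. Both SB53 arrays lay near the floor and far below every other array. With the SB53 level put at 3, the signal was at least 81.8-fold lower, a log2 difference bounded at -6.35 (limma, adjusted p = 9.81e-06).

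Ta.1450.3.S1_at was lower in SB53 without reaching the floor. It read 7.55 and 7.81 in SB53 and 11.42 to 12.07 elsewhere, a range of 0.65 over 14 arrays, and the groups lay far apart. The difference was -4.00 (SE 0.119, adjusted p = 1.35e-06, limma), a 16-fold lower signal. The array has 3 other probe sets with the same cluster number, which marks sequences grouped as one transcript family in the array design. Their differences were 0.32, 0.17 and -0.09, and none was called (lowest adjusted p = 0.329, limma).

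A pair of further probe sets were low in SB53 alone. Ta.18520.1.A1_at read 3.79 and 3.90 in SB53 against 6.64 to 8.28 on the others, a difference of -3.86 (SE 0.189, adjusted p = 3.32e-05, limma). TaAffx.37485.1.S1_at, named here after its values were seen, read 4.93 on both SB53 arrays against 6.78 to 8.72, a difference of -3.22 (SE 0.0864, adjusted p = 8.67e-07, limma). Whether the repeated 4.93 of the latter is a floor of that probe set was not tested. In both probe sets, SB15 was the lowest of the other lines, at 6.91 and 6.82.

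In 3 of the probe sets with the largest differences SB53 was lowest and one other line was low or partly low as well. TaAffx.37806.1.A1_at read 2.88 and 2.84 in SB53. The SB146 arrays of this probe set disagreed, at 7.0 and 3.12, and the remaining 12 arrays lay between 9.45 and 11.08. It was at least 91.1-fold lower in SB53 (adjusted p = 0.00425, limma), and against SB146 alone it did not pass the test (-2.20, adjusted p = 0.67). TaAffx.80149.1.S1_x_at read 2.47 and 2.79 in SB53, 5.48 and 4.54 in SB138, and 7.38 to 8.60 in the other 6 lines. SB53 was below SB138 as well (-2.38, adjusted p = 0.0169, limma), and against all 7 lines the signal was at least 22.1-fold lower. Ta.7061.2.S1_a_at split the lines cleanly: 3.30 and 3.09 in SB53, 3.30 and 3.30 in SB15, and 7.26 to 7.82 in the other 6. The value 3.30 recurs in both low lines, and whether it lies near a floor of the probe set was not tested. SB53 and SB15 did not differ beyond their spread (-0.11, adjusted p = 1), while its differences from the other 6 lines ran from -4.25 to -4.43 (highest adjusted p = 2.33e-05, limma).

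**Figure D2:**
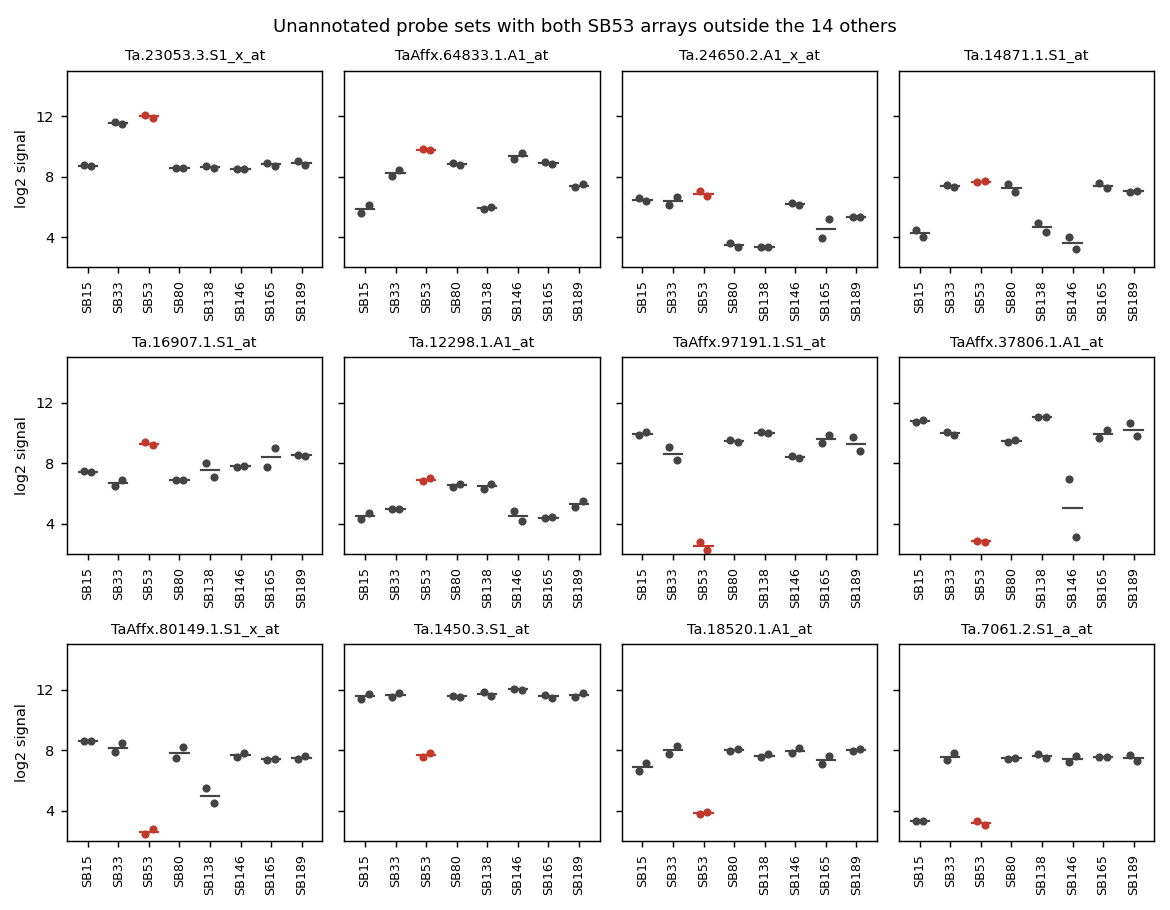
Log2 signal of each array (points) and the line mean (bars) by line for the 6 higher and 6 lower unannotated probe sets with the largest differences among those with both SB53 arrays (red) outside all 14 others. The higher ones are Ta.23053.3.S1_x_at to Ta.12298.1.A1_at. Most of these are approached by another line, while TaAffx.97191.1.S1_at, Ta.1450.3.S1_at and Ta.18520.1.A1_at stand apart in SB53.

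Over the 19740 probe sets the lower difference was largest at Ta.2434.3.A1_at, which falls outside the naming rule because SB138 shares its level, and which was chosen after its values were seen. It read 2.67 and 2.53 in SB53, 2.44 and 3.22 in SB138, and 9.45 to 11.76 in the other 6 lines. The difference from the mean of the 7 lines, SB138 included, was -7.28 (adjusted p = 1.36e-06, limma). The SB53 and SB138 means both lay near the floor, so its size is not exact. The 3 other probe sets of its cluster read between 10.30 and 11.40 in SB53 and differed by 0.12 or less from the others. Ta.13171.1.S1_at had the same split, with 2.25 on both SB53 arrays, a mean of 2.37 in SB138 and means of 6.77 to 7.38 in the rest.

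Other probe sets, likewise chosen after their values were seen, showed SB53 low together with SB80 and SB138. Ta.3242.1.A1_at had means of 2.84 in SB53, 3.32 in SB80 and 3.85 in SB138, while SB33, SB146, SB165 and SB189 lay between 10.76 and 11.31. SB15 stood between these ends, at 6.29. In the same cluster Ta.3242.1.A1_a_at and Ta.3242.3.A1_at were called lower too. Ta.3242.2.S1_at, also of this cluster, had means of 9.46 in SB53 and 9.46 to 9.63 in the others. Ta.9531.1.A1_at, of a different cluster, split the lines as Ta.3242.1.A1_at did. It had means of 3.47 in SB53, 2.96 in SB80, 3.23 in SB138, 6.67 in SB15 and 11.45 to 11.95 in the rest. Another pattern paired SB53 with SB146: Ta.3527.1.S1_at had a mean of 2.41 in both, 3.52 in SB15, 7.47 in SB189 and 8.04 to 8.39 in the other 4 lines. SB15 and SB189 thus lay between the low and the high lines there.

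Among called probe sets with a mean of 5 or more that were higher in SB53, the one outside all other arrays with the largest difference was Ta.23053.3.S1_x_at. It read 12.06 and 11.88 in SB53, 11.63 and 11.49 in SB33, and 8.51 to 9.05 on the other 12 arrays. SB53 and SB33 thus formed a high pair, with SB53 0.41 above SB33 (adjusted p = 0.202, limma). The difference from the mean of the 7 lines was 2.87 (SE 0.0787, adjusted p = 8.81e-07), a 7.31-fold higher signal. The other probe set of the cluster, Ta.23053.1.S1_a_at, was called higher as well, by 0.41 (adjusted p = 0.0336).

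The other 5 higher probe sets chosen by the rule differed by 1.65 to 1.99, and in each of them some lines came close to SB53. TaAffx.64833.1.A1_at read 9.80 and 9.76 in SB53. The other arrays ran from 5.61 in SB15 to 9.55 in SB146, with a median of 8.24, and the difference was 1.99 (SE 0.152, adjusted p = 0.000562, limma). Ta.14871.1.S1_at read 7.63 and 7.69 in SB53, 7.0 to 7.56 in SB33, SB80, SB165 and SB189, and 3.19 to 4.95 in SB15, SB138 and SB146. Its difference of 1.72 therefore rested on 3 low lines (adjusted p = 0.0143), and without SB15 or the second SB53 array it missed the threshold. Ta.12298.1.A1_at read 6.83 and 7.01 in SB53, 6.32 to 6.67 in SB80 and SB138, and 4.23 to 5.53 in the rest, a difference of 1.65 (SE 0.175, adjusted p = 0.00324, limma). Ta.24650.2.A1_x_at was higher by 1.77 (adjusted p = 0.019), with readings of 3.36 to 3.60 in SB80 and SB138 against 7.05 and 6.71 in SB53. SB15, SB33 and SB146 came close to SB53 there, at 6.09 to 6.63. Without SB80 or the first SB53 array Ta.24650.2.A1_x_at missed the threshold.

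Ta.16907.1.S1_at was higher by 1.69 (SE 0.297), read 9.43 and 9.20 in SB53 and reached 9.01 on 1 SB165 array. Its adjusted p of 0.0433 (limma) did not hold in 11 of the 27 alternatives tried.

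Among called probe sets with a mean of 5 or more, the largest difference upwards was shared by 3 other lines. TaAffx.52869.1.S1_s_at, chosen after its values were seen, read 12.19 and 12.31 in SB53, 11.83 to 12.46 in SB33, SB80 and SB189, and 5.73 to 6.37 in SB15, SB138 and SB146. The SB165 arrays lay between, at 6.57 and 8.13. The difference was 3.45 (SE 0.327, adjusted p = 0.00199, limma). Ta.20002.1.A1_at paired SB53 with SB15: 9.20 and 9.23 in SB53, 9.43 and 9.37 in SB15 and 6.23 to 6.98 in the rest, a difference of 2.12.

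Across all 359 called probe sets, SB53 seldom stood alone. No other line was nearer to SB53 than to the far end in 14 of them, 1 line was in 56, 2 lines in 81, 3 in 84, 4 in 69, 5 in 41 and 6 in 14. The higher and lower groups differed in shape: among the 190 higher probe sets the commonest counts were 3 and 4 lines with SB53, and among the 169 lower ones 2 and 3. In 29 of the higher probe sets SB80 and SB189 were the lines at the far end, the pattern met most often. SB53 had the highest mean of the 8 lines in 95 of the 359 and the lowest in 102. Both SB53 arrays lay outside all 14 others in 390 of the 19740 probe sets (1.98%), above them in 167 (0.846%) and below them in 223 (1.13%). Of the 359 called, 61 lay outside on each side.

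**Figure D3:**
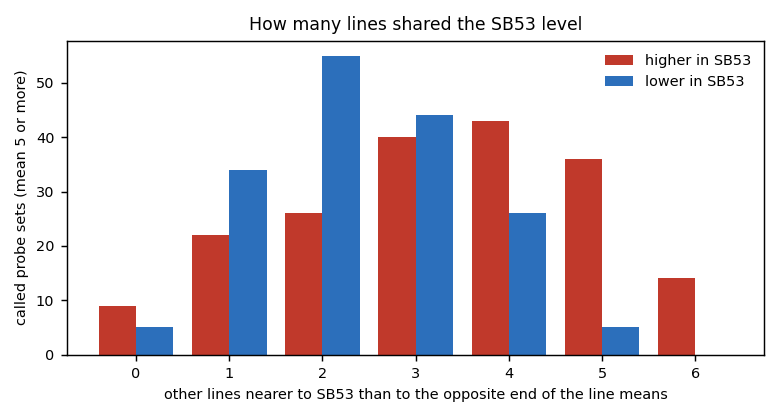
Number of called probe sets (vertical axis) by how many of the 7 other lines lay nearer to SB53 than to the opposite end of the line means (horizontal axis), for probe sets higher (red) and lower (blue) in SB53. The bars at 0 hold 9 higher and 5 lower probe sets, and the tallest bars are at 4 lines for higher and 2 lines for lower.

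The 14 probe sets in which SB53 stood alone were 5 lower and 9 higher. The lower ones include the 4 described above and Ta.7104.1.S1_at, which read 9.81 and 9.72 in SB53 and 10.49 to 11.00 elsewhere (-1.01, SE 0.0943, adjusted p = 0.00187, limma). The higher ones were small by comparison. Ta.8990.1.S1_at differed most, at 6.49 and 6.26 in SB53 and 4.99 to 5.70 elsewhere (1.08, SE 0.122, adjusted p = 0.00457), and the other 8 differed by 0.18 to 0.59. In 2 of these, Ta.23313.3.A1_at and TaAffx.9202.1.S1_at, the 14 other arrays spanned 0.015 or less, which makes a small difference pass. Those arrays read 5.72 at the first and 5.05 to 5.06 at the second. Whether these repeated values are expression levels or a floor of the probe set was not tested.

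No probe set had an SB53 mean of 5 or more with every other line under 3. The reverse, SB53 under 3 with every other line at 5 or more, held for 3: TaAffx.97191.1.S1_at, TaAffx.37806.1.A1_at and TaAffx.80149.1.S1_x_at. Among called probe sets whose 16-array mean was under 5, 28 had an SB53 mean of 5 or more. Ta.21890.1.S1_at differed most of these, with 7.61 and 7.71 in SB53, a mean of 7.51 in SB138 and 3.07 to 4.46 in the other 6 lines (3.63, adjusted p = 0.000296, limma). Ta.26013.1.A1_a_at had the same partner, with 6.37 and 6.36 in SB53, 6.11 in SB138, 5.13 in SB189 and 2.43 to 2.58 in the rest (2.97, adjusted p = 8.57e-06). TaAffx.1966.1.S1_at instead paired SB53 (6.24 and 5.98) with SB15 (5.49), the rest lying between 2.31 and 3.67.

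Of the 359, 144 had at least 1 other probe set of the same cluster with a mean of 5 or more, and in 61 of these a partner was called in the same direction. Summed over the 144, there were 343 partners, 84 called the same way and 4 the opposite way. A pair with both probe sets called enters this sum from each side. The 1.82% called in either direction over all 19740 counts each probe set once, so the shares are not directly comparable. In 3 of the 144 a partner was called in the opposite direction, all in cluster Ta.28688: Ta.28688.1.A1_at differed by -2.55 while Ta.28688.2.S1_x_at was 0.78 higher and Ta.28688.3.S1_x_at 0.34 higher. By the ending of the identifier, 2.05% of probe sets ending in plain _at were called, 1.69% of those ending in _x_at, 1.23% in _a_at and 1.1% in _s_at. The last 3 endings mark probes that can match more than one transcript.

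Against each line on its own, SB53 differed least from SB33 and SB15 and most from SB80. Counts over the 19740 probe sets, with p adjusted over all probe sets and the 7 pairs (limma), were 259 against SB33 (1.31%), 262 against SB15 (1.33%), 280 against SB138 (1.42%), 297 against SB146 (1.5%), 449 against SB189 (2.27%), 461 against SB165 (2.34%) and 648 against SB80 (3.28%). The 7 comparisons share the SB53 arrays, and the differences between these counts were not tested. Direction was lopsided against SB80, where 443 were higher in SB53 (2.24%) and 205 lower (1.04%), and ran the other way against SB165, with 196 higher (0.993%) and 265 lower (1.34%). Without the second SB53 array the split against SB165 was even (50% higher), and without the second SB165 array that comparison called 296. The median size of the difference over the 19740 was smallest against SB15, at 0.0995, and largest against SB80 and SB189, at 0.146.

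**Figure D4:**
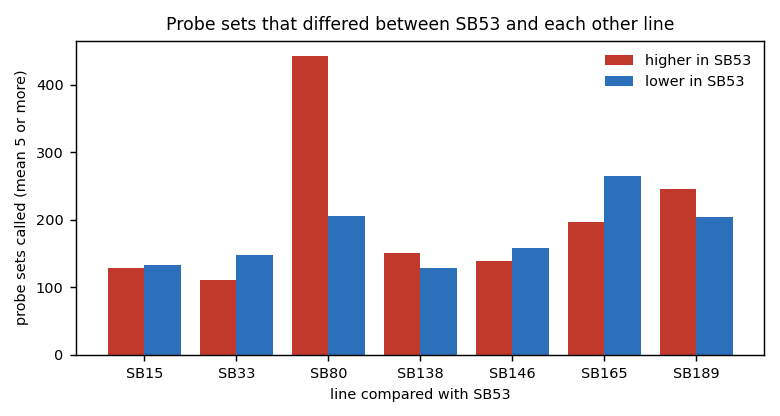
Number of probe sets with a mean of 5 or more called higher (red) or lower (blue) in SB53 against each of the 7 other lines. The SB80 bars, 443 and 205, are the most uneven, and those for SB15, 129 and 133, the most even.

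SB15 also shared SB53's side most often among the 359, in 57.7% of them, followed by SB146 (46.5%), SB138 (45.4%), SB33 (44.6%), SB189 (34%), SB165 (32.9%) and SB80 (27.3%). SB15 was the only line with SB53 in 30 probe sets, SB138 in 10, SB146 in 6, and SB165 in none.

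Of the 690 annotated probe sets with a mean of 5 or more, 9 were called (1.3%), for 8 genes. All 8 carry only a locus number in the annotation used here, so no role is given for them. LOC780602 read 8.85 and 8.80 in SB53, 5.26 to 6.35 in SB80 and SB189, and 8.20 to 8.68 in the other 5 lines. SB53 was the highest line, by a narrow margin over most lines and a wide one over those 2. The difference was 1.11 (SE 0.0773, adjusted p = 0.000306, limma) and fell to 0.71 without SB80. By pairs it passed the test against SB80 (3.56, adjusted p = 1.78e-06) and SB189 (2.66, adjusted p = 7.51e-06) and against no other line, the nearest being SB146 (0.55, adjusted p = 0.0535). The 4 other probe sets put to this gene differed by -0.11 to 0.13, and none was called.

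LOC543111 was represented by 2 called probe sets. The first read 10.45 and 10.36 in SB53, 10.21 to 10.36 in SB33 and SB80, and 9.17 to 9.78 in the remaining lines. To 2 decimals the lower SB53 array equalled the highest SB33 array. SB53, SB33 and SB80 thus formed a high group, and the difference from all 7 lines was 0.74 (SE 0.0902, adjusted p = 0.00718, limma). The second was higher by 0.68 (SE 0.0874, adjusted p = 0.00975), and one more probe set of the gene, of another cluster, differed by -0.03.

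A pair of annotated genes were lower in SB53. LOC542947 read 11.64 and 11.29 in SB53 and 11.64 to 12.77 elsewhere, a difference of -0.65 (SE 0.0936, adjusted p = 0.0165, limma). The higher SB53 array touched the lowest of the others, an SB15 array, and without SB165 or the second SB53 array the test was missed. LOC543452 read 7.28 and 7.50 in SB53 and 7.60 to 8.53 elsewhere, a difference of -0.63 (SE 0.0979, adjusted p = 0.0241), missed without SB80 or the first SB53 array.

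The remaining 4 genes overlapped other lines. LOC542911 read 10.72 and 10.81 in SB53, 10.66 to 10.81 in SB15 and SB138, and 9.81 to 10.16 in the rest, a clean split of 3 lines from 5 (0.54, SE 0.0687, adjusted p = 0.00915, limma), missed without the second SB53 array. LOC100037537 differed by -0.54 (adjusted p = 0.034) and LOC100037539 by 0.43 (adjusted p = 0.0381), and each missed the threshold in 8 of 27 alternatives. LOC543440 differed by -0.79 with an adjusted p of 0.0494 and missed it in 13. A second probe set of LOC100037539 differed by 0.35 and was not called (adjusted p = 0.128, limma).

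**Figure D5:**
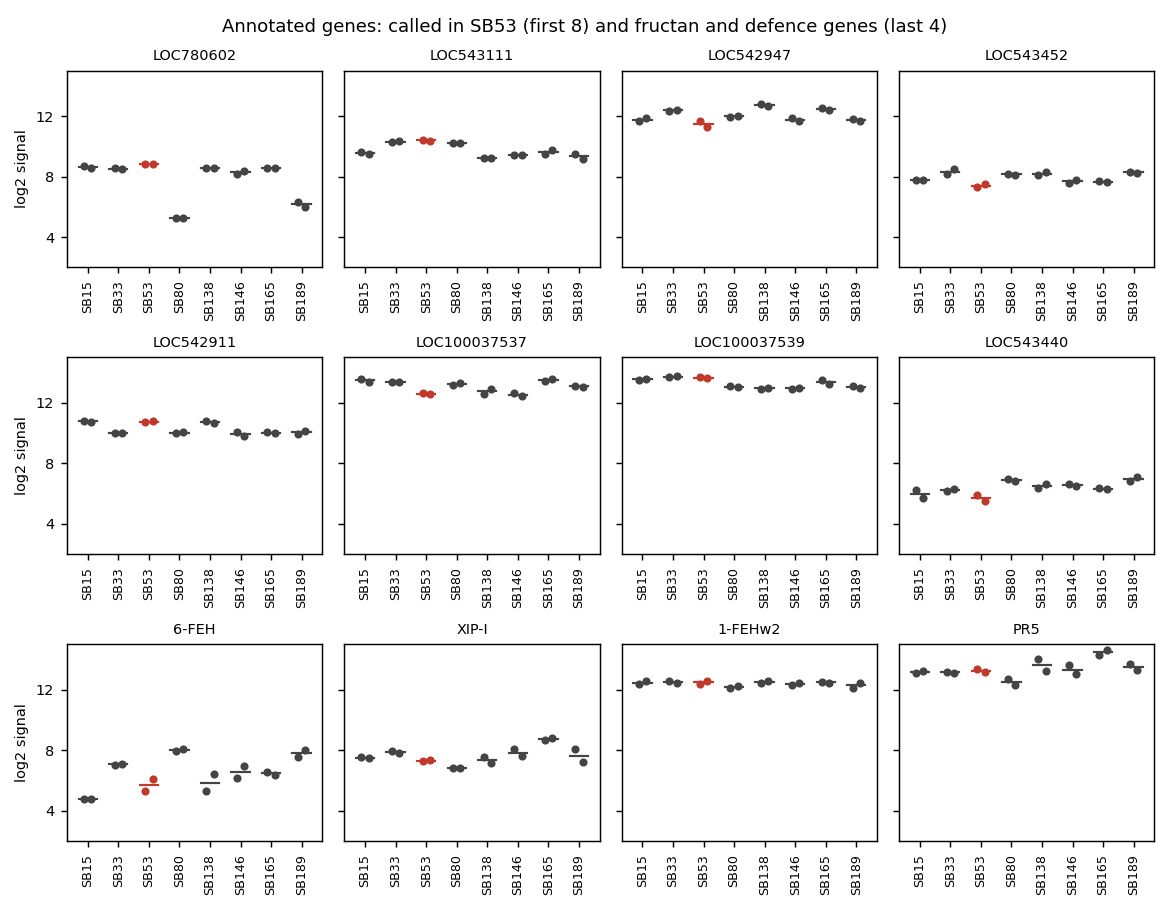
Log2 signal of each array (points) and the line mean (bars) by line for the 8 annotated genes called in SB53 (red) and for 6-FEH, 1-FEHw2, XIP-I and PR5, which were not called. LOC780602 is low in SB80 and SB189 only, and for the last 4 the SB53 points lie inside the range of the other lines.

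The annotation gives a name to 77 genes in 14 role groups drawn up from it, and of their 73 probe sets with a mean of 5 or more, for 46 genes, none was called at an adjusted p under 0.05 (limma), beside 1.82% of all 19740, a share that over so few probe sets is close to none. By unadjusted p under 0.05 there were 4 of 73 (5.48%), beside 2290 of 19740 probe sets overall (11.6%). The role groups were drawn up from the annotation's own names. A set of 30 pathway lists searched in the same names found members for 10, and members with a mean of 5 or more for 7. None of the latter was called, beside 1.82% of all 19740, a share that over so few members is close to none.

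The fructan genes measured were exohydrolases, and no fructan synthesis gene has a name in the annotation used here. 6-FEH, a fructan exohydrolase named for the linkage it cleaves, read 5.33 and 6.09 in SB53 on its probe set Ta.9641.1.A1_a_at, a mean of 5.71 ± 0.54 (SD, n = 2). The 7 other line means ran from 4.77 in SB15 to 8.04 in SB80, and SB53 ranked 7 of the 8 lines. The difference of -0.94 (SE 0.307) was not called (adjusted p = 0.474, limma). A second 6-FEH probe set, of another cluster, read 9.08 and 9.03 in SB53 and differed by -0.09 (adjusted p = 1), and one more lay near the floor in every line. 1-FEHw2, an exohydrolase of the other main linkage, read 12.40 and 12.57 in SB53, within the 12.09 to 12.58 of the other arrays (0.08, SE 0.0865, adjusted p = 1).

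Defence proteins lay inside the range of the other lines. PR5, a thaumatin-like pathogenesis protein, read 13.35 and 13.18 in SB53 and 12.31 to 14.62 elsewhere (-0.13, SE 0.214, adjusted p = 1, limma). XIP-I, an inhibitor of fungal xylanases, read 7.32 and 7.33 in SB53 and 6.80 to 8.84 elsewhere (-0.36, SE 0.191, adjusted p = 0.807). The close agreement of the SB53 arrays contrasts with SB189, whose XIP-I arrays read 8.06 and 7.23.

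Tubulins, the subunits of microtubules, gave 7 probe sets with a mean of 5 or more, 5 of them with positive differences, and none was called. tubb3 read 11.87 and 11.81 in SB53, the highest mean of the 8 lines, with 11.32 to 11.85 elsewhere (0.28, SE 0.116, adjusted p = 0.539, limma). Tubb4 was also highest in SB53, at 8.72 and 8.77 against 8.21 to 8.74 (0.21, SE 0.118, adjusted p = 0.875), while tubb2 differed by -0.22 (adjusted p = 1).

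Of the 37 probe sets of photosynthesis and carbon fixation genes, 17 had a mean of 5 or more, and the lowest mean was 2.25. These 17 differed by -0.07 to 0.18, with a median of 0.0098 beside -0.012 over all 19740, and none was called. Some read high in SB53: the oxygen-evolving proteins PsbO (14.80) and PsbP (14.96), the Rieske protein petC (15.30) and the Calvin cycle enzyme phosphoribulokinase, PRK (14.93). Others were lower, such as 5.25 at the rbcL probe set TaAffx.128414.42.S1_at. The 8 translation probe sets with a mean of 5 or more differed by -0.15 to 0.08. Among them the cap-binding factor eIF4E read 10.50 on both SB53 arrays and 10.51 to 10.83 elsewhere, below every other array, with an adjusted p of 0.541 (limma). The 11 antioxidant and detoxification probe sets with a mean of 5 or more differed by -0.06 to 0.13 and included the catalase CAT1, at 15.05 in SB53.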

How the data were processed

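Flag leaf RNA of 8 wheat lines, 2 field replicates each, was measured on 16 single-colour arrays. The deposited values are log2 signals made by the authors. Both RMA and GCRMA are named in the submitters' processing notes, with no version, and which one made these values is not given in the sources used here. Arrays, not reads, were measured, so precision is limited by the 2 arrays per line. No further normalization was applied. SB53 was compared with the mean of the 7 other line means in limma 3.58.1 (R 4.3.3; lmFit, eBayes) over all 8 lines, with 8 residual degrees of freedom, two-sided, with Benjamini-Hochberg adjustment over 61115 probe sets and a threshold of 0.05. The 7 pairs of SB53 with each line were adjusted over probe sets and pairs together. The error in this fit is the disagreement between the 2 arrays of a line, so the p-values do not measure spread between lines. A group mean under 3 was taken as near the floor, and a fold is then a bound.

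Of 1273 annotated probe sets, 1272 were matched to the RefSeq gene table of IWGSC CS RefSeq v2.1, and only names were used. Named items are, among called probe sets with a mean of 5 or more and both SB53 arrays outside the 14 others, up to 12 annotated genes and 6 unannotated probe sets per direction by size, plus up to 6 annotated called genes that overlap, up to 3 per list by lowest p, and every fructan, PR5, XIP-I and tubulin gene. Others are said to be chosen after their values were seen. SB53, its gene lists and its role groups were chosen with earlier results of these data known.

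The field replicate numbers were not taken to pair the samples: over 28 pairs of lines the correlation of same-numbered deviations ran from -0.21 to 0.38 with a median of 0.14, and 16, not all, were over 0.1. Alternatives were normalization, filters, a prior with trend, array weights, a replicate block, and leaving out lines and arrays.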

Additional observations from a re-analysis of the deposited data

Results flagged for a closer look

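Of the control probe sets, which enter no comparison, the reporter controls averaged 2.48 in SB53. The poly-A spike, hybridisation and 18S controls read well above the controls without a target, which averaged 2.27. The poly-A spike controls, RNA added to each sample, read 9.75 and 9.85 in SB53, 7.54 log2 units above those controls, and the other line means ran from 8.98 in SB80 to 10.26 in SB165. The hybridisation controls read 10.26 and 11.01, 8.37 units above. The 18S ribosomal RNA control read 11.16 and 8.24 on the 2 SB53 arrays, 7.43 units above on average with an SD of 2.1, while other line means ran from 6.85 to 11.06. The part of these differences in the SB53 results was not tested.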

How the results depend on the processing

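Of the 359 probe sets called with a mean of 5 or more, 205 were called without SB53 replicate 2 and 230 without SB53 replicate 1, and calls shared with an alternative kept their direction. The share higher was 52.9% and ran from 44.5% to 58.1% when single arrays were left out. With only probe sets of mean 5 or more in the fit, which adjusts over fewer tests, 619 were called, and the cause was not tested. By pairs this fit called 421 (SB15), 421 (SB33), 1094 (SB80), 491 (SB138), 509 (SB146), 850 (SB165) and 781 (SB189). With array medians subtracted there were 581, and by pairs 391 (SB33), 999 (SB80), 433 (SB138), 476 (SB146), 744 (SB165) and 716 (SB189), and the cause was not tested. A difference of at least 1, which keeps fewer by construction, left 235 of 567 and 164 of 359. Array weights by line gave 908 and 605, and leaving out SB80 gave 230, of which 218 were shared with the 359; the cause was not tested. The replicate block gave 526 over all probe sets and 333 with a mean of 5 or more, 299 of them among the 359, and the limma adjusted p became 0.0806 for Ta.16907.1.S1_at, 0.0672 for LOC100037537, 0.0631 for LOC100037539 and 0.0792 for LOC543440; the field numbers are not taken to pair the samples. Leaving out 1 array gave 876 to 2220 calls over all probe sets, the latter without SB53 replicate 1, where 87.4% were higher and 330 had a mean of 5 or more. With a mean of 5 or more it gave 253 (without SB53 replicate 2) to 475 (without SB189 replicate 1). By pairs the ranges were 180 to 295 (SB15), 203 to 286 (SB33), 463 to 698 (SB80), 199 to 321 (SB138), 260 to 343 (SB146), 296 to 536 (SB165) and 357 to 570 (SB189). A lone array is assumed to vary like the other lines. The 6 lower unannotated probe sets named by the rule passed in all 27 alternatives, as did Ta.23053.3.S1_x_at, TaAffx.64833.1.A1_at, Ta.12298.1.A1_at and LOC780602.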

Other observations

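Large differences did not always pass the test. Of the 19740 probe sets, 21 differed between SB53 and the other lines by 2 or more without a call, 11 higher and 10 lower, and in these the SB53 arrays usually lay close together. The SE in this fit comes from disagreement between the arrays of a line, pooled over all lines. The spread of the line means given below does not enter it. Ta.9040.1.A1_at had the largest positive difference, 5.40 (SE 1.12, adjusted p = 0.0958, limma). It read 10.59 and 10.46 in SB53, with means of 10.40 in SB15, 8.73 in SB189, 4.85 in SB33, 4.47 in SB146 and 2.43 to 2.59 in SB80, SB138 and SB165. Ta.27457.5.S1_x_at, at -6.08 (SE 1.34, adjusted p = 0.123), read 3.0 and 2.76 in SB53, with 2.69 in SB80 and 12.06 to 12.78 in SB15, SB138 and SB165. Ta.3784.1.S1_at, at -5.19 (adjusted p = 0.286), had the same low pair of lines, SB53 at 5.93 and 5.81 and SB80 at 5.38, beside 13.84 in SB189.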
